A study of Saccharomyces cerevisiae with 11 samples.

Results

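The genes described here encode the nuclear subunits of the cytochrome bc1 complex, respiratory complex III, of Saccharomyces cerevisiae. They are COR1, QCR2, CYT1, RIP1 and QCR6 to QCR10, which are 9 of the 6668 genes in the count tables, and they were found in every table by their systematic names. The complex was chosen by the rise of its RNA in Middle cells over Young cells, so the values and calls of its subunits in that contrast restate the choice and support nothing. The other subunit, cytochrome b, is encoded by COB in mitochondrial DNA. The tables hold 0 mitochondrial genes, and COB was not analysed here.

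The study asked how gene expression and translation change as mother cells of yeast grow old. RNA-Seq and ribosome profiling were applied to the wild-type diploid strain BY4743, which carries the alleles his3Δ1, leu2Δ0 and ura3Δ0 on both chromosomes and lys2Δ0 and met15Δ0 on one, in synthetic medium with glucose and mannose at 25 °C. Ribosome profiling sequences the stretches of mRNA that ribosomes protect from nuclease, called footprints. Cells coated with biotin were grown in batch for 13 h. Young cells were the uncoated daughters left behind by streptavidin beads, Middle cells were the beaded mothers, and Aged cells were beaded mothers held on a magnet for a further 24 h in the miniature aging device (MAD), under a flow of medium and air. Biotin and beads are therefore present in Middle and Aged cells only, and their effect, and for Aged cells that of the device, cannot be told apart from that of age. There were 6 RNA-Seq libraries, 2 per age, and 5 footprint libraries, 2 of Young, 2 of Middle and 1 of Aged cells. The study's methods call the replicates of Young and Middle cells biological, and p-values measure the spread between these libraries.

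Complex III sits in the inner mitochondrial membrane, where it takes electrons from ubiquinol and hands them to cytochrome c while it moves protons across the membrane. Electrons pass through 3 of its proteins, cytochrome b, the Rieske iron-sulfur protein and cytochrome c1. The others hold the complex together. Yeast that ferments glucose represses many genes of respiration, and the Hap2/3/4/5 complex, which binds the sequence CCAAT, activates many of them when glucose runs low.

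The stretch from 250 bases before to 50 bases after each start codon was read from the RefSeq R64 genome to see which known elements the subunit genes share. CCAAT, on either strand, was found in 7 of the 9 genes and in 43.3% of 6001 such stretches. At least 2 sites were found in 3 of the 9 genes (RIP1, QCR6 and QCR7) and in 10.9% of all stretches. In RIP1 and QCR7 a site lies after the start codon, within the coding sequence, and in QCR6 both lie before it. CACGTG, the site of Cbf1, was found in 3 of the 9 (RIP1, QCR8 and QCR10) and in 2.92% of all, and TATAAA in 2 of the 9 (COR1 and QCR2) and in 45.2% of all. Each motif was counted by its own letters, whether or not it overlapped another. COR1 and CYT1 had no CCAAT in this window. The windows around the CCAAT nearest upstream of the start codon in each of the 7 genes are printed here because they are the element that most of the subunits share. Capitals mark CCAAT, or ATTGG where it lies on the other strand, and each line is read in the direction of the gene.
QCR2, chrXVI:919183-919212, plus strand: cattcccaacgaaCCAATagaaggcccgcc
RIP1, chrV:107010-107029, plus strand: ggaCCAATcagcgttttgcg
QCR6, chrVI:224859-224888, minus strand: tcttaagggcagtATTGGttggcgcttatt
QCR7, chrIV:1496713-1496742, minus strand: gatcttgttttgaCCAATcaggagcgacgc
QCR8, chrX:106210-106239, plus strand: gattttttttaagCCAATgaaaatgaagaa
QCR9, chrVII:859667-859696, minus strand: cattatacacgacCCAATcaaacgcgggga
QCR10, chrVIII:107614-107643, plus strand: acgtgattttgatCCAATtaaaactaaata
These sites lie 185 bases before the start codon in QCR2, 247 in RIP1, 106 in QCR6, 181 in QCR7, 211 in QCR8, 207 in QCR9 and 199 in QCR10. A match of letters is a description and does not show binding.

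QCR9 and QCR10 are the only subunit genes with an intron, and their first exons are so short that they are printed in capitals with the start of the intron.
QCR9, chrVII:859454-859476, minus strand: ATGgtatgttggtgtgtgtgtgt
QCR10, chrVIII:107826-107851, plus strand: ATGGCGgtaagtatcctatcatatta
The first exon has 3 bases in QCR9, before an intron of 213 bases, and 6 bases in QCR10, before an intron of 63 bases. Since the authors left out reads on the first and last 5 codons of each coding sequence, all counts of both genes fall in their second exon. The counts therefore cannot separate spliced from unspliced RNA. None of the 9 genes overlaps another gene of the RefSeq annotation. Counted genes without a match in that annotation could not be checked for overlap.

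Library totals ranged from 476704 to 2585717 counts in RNA-Seq and from 168247 to 965156 in footprints. A level of 3 counts, taken as the floor, corresponded to 1.16 to 17.8 CPM (reads of a gene relative to the size of its library, the size being scaled by edgeR's TMM method where levels are given). The subunit counts were at least 20 in every RNA-Seq library and at least 24 in every footprint library. The summed RNA of 7 genes that haploid cells express and diploid cells repress was 62.0 to 94.3 CPM in Young cells and 19.0 to 24.0 CPM in Aged cells, none of the 4 that could be tested passed, and their footprints summed to 7.81 to 24.7 CPM over all libraries. LEU2, URA3 and HIS3, which the strain's genotype lists as deleted in whole or in part, had counts in every library, with 36 to 412 RNA counts for URA3 and 16 to 142 for LEU2. The source of these reads was not tested. Genes that newborn daughter cells express after division were not, as a sum, highest in the cells labelled Young. The summed RNA of 9 of them was 457 to 1012 CPM in Young, 676 to 1180 CPM in Middle and 1539 to 1545 CPM in Aged cells. Their footprints summed to 474 to 1020 CPM in Young, 595 to 839 CPM in Middle and 1622 CPM in Aged cells. In RNA of Aged cells, 3 of them passed the test (DSE1, AMN1 and CTS1, log2 fold changes of 1.99, 2.06 and 1.57), beside 8.02% of all genes. As for every gene, these RNA calls did not stand without Young replicate 2. Leaving out 1 library, these fold changes ranged from 1.82 to 2.15, 1.61 to 2.53 and 1.05 to 2.31. In footprints 4 of the 9 passed (DSE1, DSE2, CTS1 and SCW11, 1.67 to 4.21), beside 4.79% of all genes. Of these, DSE1 did not pass without footprint Young replicate 2. In RNA of Aged over Young cells, the log2 fold change was above 0 for 8 of these 9 genes and below 0 for 1. In footprints it was above 0 for 7 and below 0 for 2, the lowest at -1.15. Their sums in Aged cells moved in the same direction as complex III, and their part in its change was not tested. A change in the mixture of cells and a change within each cell cannot be told apart in these bulk libraries.

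The 9 subunit genes together took a larger share of all counts at each later age. In RNA, they held 0.0997% and 0.185% of the counts in the Young libraries, 0.394% and 0.483% in those of Middle and 0.675% and 0.659% in those of Aged cells. In footprints, the shares were 0.134% and 0.292% (Young), 0.688% and 0.705% (Middle), 0.921% (Aged). The widest 95% Wilson interval ran from 0.649% to 0.728% (footprints, Middle replicate 1). These intervals cover counting error only, since reads amplified by PCR are not independent molecules. The mean share was 3.08-fold (Middle) and 4.69-fold (Aged) that of Young cells in RNA, and 3.27-fold and 4.32-fold in footprints. Within both assays, every Middle and Aged library lay above both Young libraries. In RNA, the lowest share was 2.13 (Middle) and 3.57 (Aged) times the higher Young share. In footprints it was 2.36 and 3.16 times that share, with 1 library of Aged cells.

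The Young libraries differed from each other. Replicate 2 was above replicate 1 for 8 of the 9 subunits in RNA, by a median of 2.04-fold (0.976 to 2.62), and for all 9 in footprints, by a median of 1.54-fold (1.17 to 3.10). The corresponding ratios of replicate 2 to 1 ranged from 0.791 to 1.61 in RNA of Middle cells and from 0.596 to 1.28 in RNA of Aged cells. Results that rest on one Young library are given without it.

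**Figure D1:**
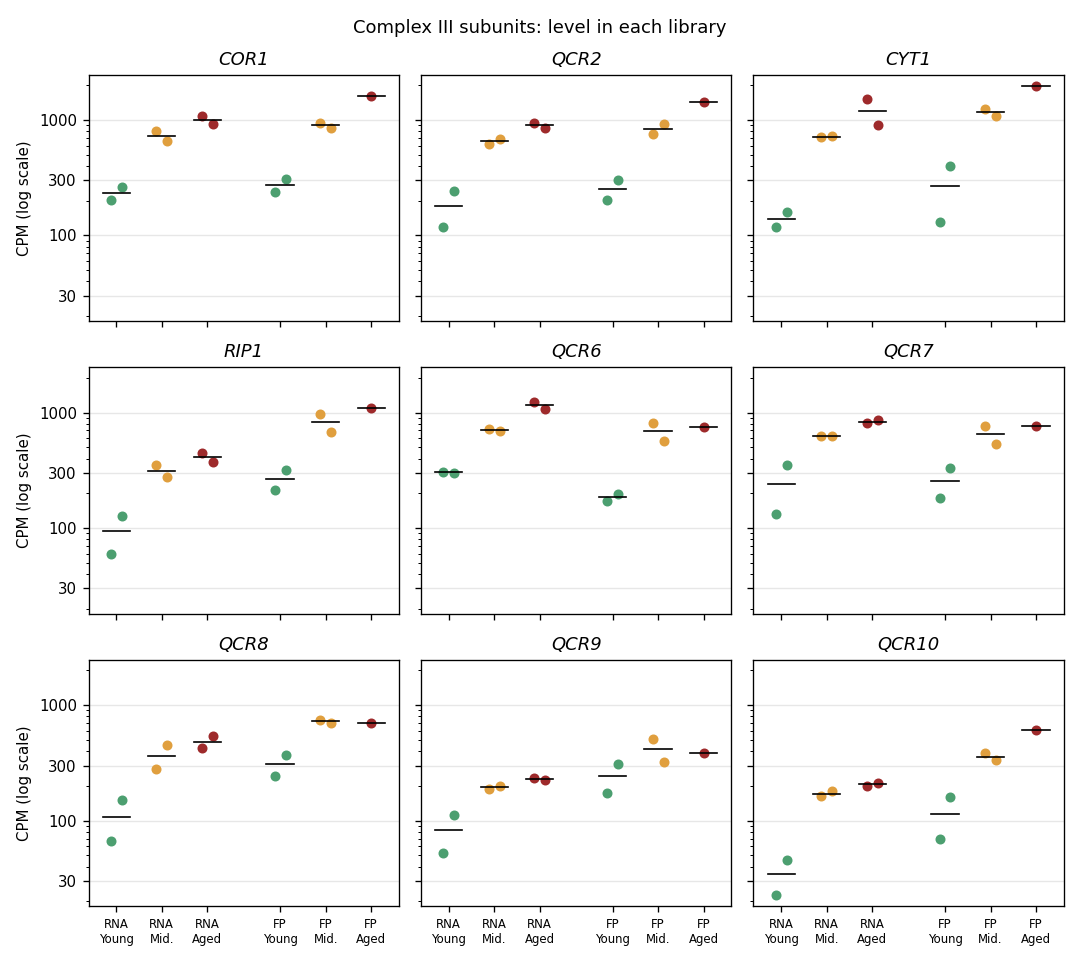
Level of each complex III subunit in every library, in TMM-scaled CPM on a log axis, for RNA and footprints (FP) of Young, Middle (Mid.) and Aged cells. Points are libraries and black lines are means. For all 9 subunits the Middle and Aged points lie above both Young points in both assays, closest in the footprints of QCR9. Of genes with a mean of at least 10 counts, 27.8% (Middle) and 29.3% (Aged) do so in RNA. In footprints the shares are 28.1% and 41.0%. RNA of Middle over Young cells is the contrast of the choice.

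The core proteins COR1 and QCR2, which face the matrix and are relatives of the mitochondrial processing peptidase, rose in RNA and in footprints of Aged cells. COR1 (YBL045C, chrII:134143-135516, minus strand, 1 exon) had 203 and 265 CPM of RNA (Young), 808 and 652 CPM (Middle), 1073 and 919 CPM (Aged). Its footprints were 237 and 306 CPM (Young), 937 and 855 CPM (Middle), 1606 CPM (Aged). The levels of the 3 ages did not overlap in either assay. Shares of all genes that lay higher without overlap are given with each comparison below. RNA of COR1 was 4.24-fold higher in Aged than in Young cells (log2 fold change 2.08 ± 0.36 SE, n = 2 per age, adjusted p of 0.0051 in edgeR's quasi-likelihood test with Benjamini-Hochberg adjustment over 5897 genes).

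For QCR2 (YPR191W, chrXVI:919381-920487, plus strand, 1 exon), RNA levels were 119 and 243 CPM (Young), 625 and 685 CPM (Middle), 948 and 851 CPM (Aged). Its footprints were 202 and 304 CPM, 759 and 925 CPM, and 1441 CPM at the same ages. Again no library of one age overlapped another age. Of both proteins together, RNA and footprints kept close to each other, and the footprint level was 1.15 to 1.70 times the RNA level in each lysate.

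CYT1 encodes cytochrome c1, which carries a heme and passes electrons to cytochrome c. Its RNA had the highest log2 fold change of the 9 genes in Aged over Young cells. CYT1 (YOR065W, chrXV:447439-448368, plus strand, 1 exon) had 119 and 158 CPM of RNA (Young), 710 and 721 CPM (Middle), 1505 and 896 CPM (Aged). Its footprints were 130 and 403 CPM (Young), 1252 and 1081 CPM (Middle), 1967 CPM (Aged). Young footprints differed 3.10-fold between replicates, the widest gap of any subunit, and still lay below every Middle and Aged library. In footprints of Aged over Young cells its log2 fold change was 2.87, and without Young replicate 1 it was 2.29, where that of COR1 was 2.39. RNA of CYT1 was 8.59-fold higher in Aged than in Young cells (log2 fold change 3.10 ± 0.42 with its SE, adjusted p of 0.0017, edgeR), which ranked 26th from the top of 5897 genes.

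RIP1 encodes the Rieske iron-sulfur protein, the first electron acceptor from ubiquinol and one of the last subunits to be inserted. RIP1 (YEL024W, chrV:107260-107907, plus strand, 1 exon) had 59.1 and 128 CPM of RNA (Young), 348 and 275 CPM (Middle), 443 and 374 CPM (Aged). Footprints of RIP1 were 214 and 320 CPM (Young), 968 and 685 CPM (Middle), 1086 CPM (Aged). Both assays separated Young cells from the later ages, and footprints were above RNA in every lysate.

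The small subunits QCR6, QCR7 and QCR8 had the flattest steps between Middle and Aged footprints along with QCR9. QCR6 (YFR033C, chrVI:224326-224769, minus strand, 1 exon), an acidic protein next to cytochrome c1, had 307 and 299 CPM of RNA (Young), 722 and 691 CPM (Middle), 1246 and 1075 CPM (Aged). Its footprints were 170 and 199 CPM, 814 and 568 CPM, and 757 CPM. The Aged footprint level thus lay between the Middle replicates. QCR7 and QCR8 both contact cytochrome b and join it early in assembly. QCR7 (YDR529C, chrIV:1496165-1496548, minus strand, 1 exon) had 133 and 349 CPM of RNA (Young), 629 and 632 CPM (Middle), 809 and 861 CPM (Aged). Its footprints were 182 and 333 CPM, 765 and 531 CPM, and 758 CPM. QCR8 (YJL166W, chrX:106434-106718, plus strand, 1 exon) had 67.0 and 150.1 CPM of RNA (Young), 279 and 449.7 CPM (Middle), 422 and 541 CPM (Aged). Its footprints were 243 and 372 CPM, 746 and 699 CPM, and 705 CPM. For QCR6, QCR7 and QCR8 alike, Aged footprints did not exceed both Middle libraries, and all lay above Young cells.

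QCR9 and QCR10 are the smallest subunits. QCR10 had the larger log2 fold changes over Young cells in both RNA and footprints, a difference that was not tested. QCR9 (YGR183C, chrVII:859063-859476, minus strand, 2 exons), which lies near the Rieske protein and cytochrome c1, had 52.3 and 113 CPM of RNA (Young), 188 and 199.8 CPM (Middle), 236 and 224 CPM (Aged). Its footprints were 173 and 312 CPM (Young), 512 and 322 CPM (Middle), 386 CPM (Aged). The lower Middle library exceeded the higher Young library by a ratio of only 1.03, and the Aged library by 1.24. QCR10 (YHR001W-A, chrVIII:107826-108122, plus strand, 2 exons), a peripheral subunit, had 22.7 and 45.9 CPM of RNA (Young), 162 and 179 CPM (Middle), 201 and 212 CPM (Aged). Its footprints were 69.3 and 161 CPM (Young), 382 and 336 CPM (Middle), 609 CPM (Aged). The levels of QCR10 did not overlap between ages in either assay.

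RNA of Aged cells was compared with Young cells to ask whether the subunits stayed high after a day in the device. All 9 subunits rose, with log2 fold changes from 1.44 (QCR9) to 3.10 (CYT1) and a median of 2.09, against 8.02% of 5897 genes called higher at an adjusted p under 0.05 and a median of -0.02 over all genes. The log2 fold change was 2.53 ± 0.38 SE for QCR10 (adjusted p of 0.0031), and QCR2 followed with 2.30 ± 0.41 (0.0058), QCR8 with 2.13 ± 0.40 (0.0076), RIP1 with 2.09 ± 0.38 (0.0067) and QCR6 with 1.94 ± 0.36 (0.0068). QCR7 and QCR9 had the smallest changes, 1.78 ± 0.45 (adjusted p of 0.024) and 1.44 ± 0.38 (0.029). This comparison shares the Young libraries with the contrast by which the complex was chosen, so it is not independent of it. Without Young replicate 1, QCR7 and QCR9 did not pass and the other 7 did. Without Young replicate 2, fold changes were larger for 8 of the 9 but the fit called 0 of 5958 genes, with 1472 genes and all 9 subunits at an unadjusted p under 0.05, and adjusted p-values of the subunits of 0.0809 to 0.0889. Both Aged libraries lay above both Young libraries for all 9 subunits, as they did for 29.3% of all genes with a mean of at least 10 counts.

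For RNA of Middle over Young cells, log2 fold changes were 2.36 ± 0.32 SE for CYT1, 2.26 ± 0.37 for QCR10, 1.85 ± 0.38 for QCR2, 1.74 ± 0.42 for QCR8, 1.70 ± 0.37 for RIP1, 1.63 ± 0.32 for COR1, 1.38 ± 0.44 for QCR7, 1.22 ± 0.30 for QCR6 and 1.20 ± 0.37 for QCR9. In this contrast 2.11% of genes were called higher and 4 of the 9 subunits were among them, and 27.8% of genes had both Middle libraries above both Young ones, as all 9 subunits did. The complex was selected on this contrast, so these counts are no test of it and nothing is read from them.

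From Middle to Aged cells, RNA of the subunits had log2 fold changes of 0.24 (QCR9) to 0.74 (CYT1), with a median of 0.41. None of the 9 passed the edgeR test, where 7.75% of 5674 genes did in either direction. QCR6 alone had an unadjusted p under 0.05 (log2 fold change 0.72 ± 0.28 SE), and DESeq2 also called 0 subunits. The test shares the Middle libraries with the contrast used for the choice. Aged RNA lay above both Middle libraries for 8 of the 9 subunits, all but QCR8, and for 28.5% of all genes.

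Footprints of Middle cells were compared with Young cells to ask whether ribosomes on the subunit mRNAs moved with the RNA. COR1, QCR2, CYT1 and QCR6 rose, against 2.74% of 4167 genes called higher. The log2 fold changes were 1.70 ± 0.42 SE for COR1 (adjusted p of 0.039, edgeR), 1.72 ± 0.43 for QCR2 (0.041), 2.10 ± 0.55 for CYT1 (0.047) and 1.88 ± 0.42 for QCR6 (0.026). RIP1 (1.603 ± 0.44, adjusted p of 0.053) and QCR10 (1.597 ± 0.46, 0.058) came just short, and QCR7 (1.30 ± 0.45, 0.10), QCR8 (1.21 ± 0.42, 0.10) and QCR9 (0.74 ± 0.44, 0.33) were further from the threshold. Both Middle libraries lay above both Young libraries for all 9 subunits and for 28.1% of all genes with a mean of at least 10 counts. These footprints come from the Young and Middle lysates whose RNA was used to choose the complex, so this comparison is not independent of the choice. The number called depended on single libraries. It was 1 without Young replicate 1, 8 without Young replicate 2, 1 without Middle replicate 1 and 0 without Middle replicate 2.

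Footprints of Aged cells showed the widest split among the subunits. COR1, QCR2, CYT1, RIP1, QCR6 and QCR10 rose 4.05-fold to 7.32-fold over Young cells, while the 3 subunits QCR7, QCR8 and QCR9 did not pass, against 4.79% of 4635 genes called higher. The log2 fold changes that passed were 2.87 ± 0.65 SE for CYT1 (adjusted p of 0.016, edgeR), 2.56 ± 0.53 for COR1 (0.010), 2.50 ± 0.54 for QCR2 (0.013), 2.38 ± 0.53 for QCR10 (0.016), 2.03 ± 0.51 for QCR6 (0.024) and 2.02 ± 0.54 for RIP1 (0.033). QCR7 had 1.55 ± 0.54 (adjusted p of 0.091), QCR8 1.19 ± 0.52 (0.17) and QCR9 0.66 ± 0.53 (0.48). The median over the 9 was 2.03, and that over all genes -0.02. A p that misses the threshold does not show that these subunits stayed level, and differences between subunits were not tested. The single Aged footprint library has no replicate, and the fit assumes that it varies like the other 4. Those 4 come from the lysates whose RNA was used to choose the complex, so this comparison is not independent of the choice. Without Young replicate 1, RIP1 no longer passed (adjusted p of 0.052) and 5 subunits remained, and without Young replicate 2, QCR7 was added (log2 fold change 1.98, adjusted p of 0.0086).

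Aged footprints lay above both Young libraries for all 9 subunits and for 41.0% of all genes, a high share because there is 1 Aged library. They lay above both Middle libraries for 5 of the 9 (COR1, QCR2, CYT1, RIP1 and QCR10) and for 40.5% of all genes. Relative to Middle cells, log2 fold changes were 0.84 for COR1, 0.77 for QCR2, 0.77 for QCR10, 0.75 for CYT1, 0.40 for RIP1, 0.23 for QCR7, 0.14 for QCR6, -0.03 for QCR8 and -0.10 for QCR9, with SEs of 0.52 to 0.65. None passed the edgeR test, and 0 had an unadjusted p under 0.05, where 3.24% of genes were called in either direction, and DESeq2 called 0.

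**Figure D2:**
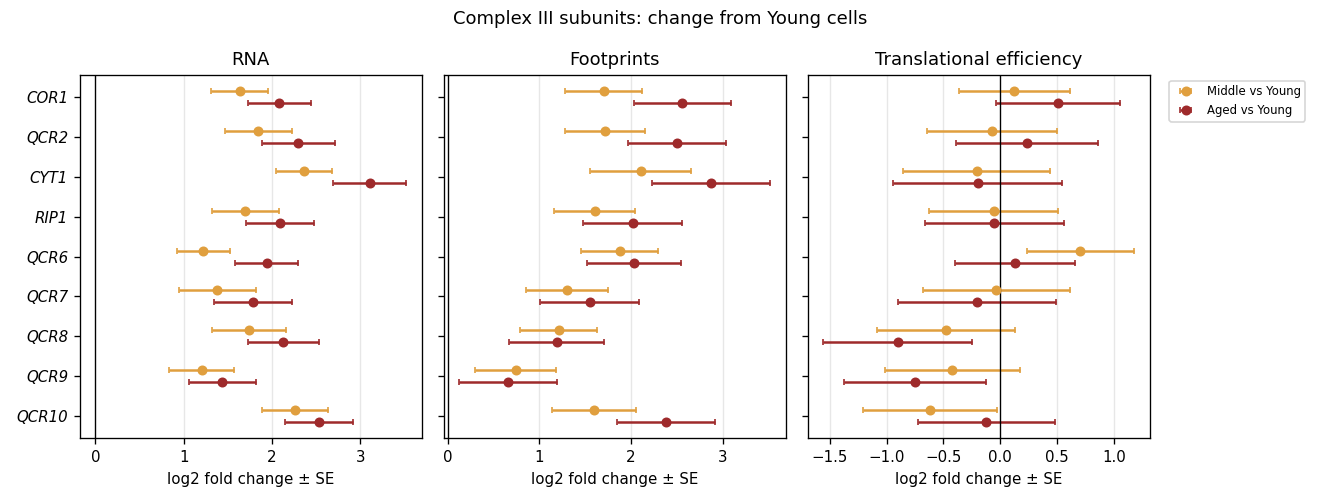
Change of each complex III subunit from Young cells in RNA, footprints and translational efficiency, as log2 fold change with its standard error (bars), for Middle and Aged cells. All RNA and footprint estimates lie above 0, with QCR9 lowest in footprints of Aged cells at 0.66, while most translational efficiency bars cross 0.

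Translational efficiency compares footprints with RNA of the same gene, and its change was tested by an age-by-assay interaction term in edgeR. No subunit passed. In Middle cells the estimates ran from -0.62 ± 0.59 SE (QCR10) to 0.71 ± 0.47 (QCR6) on the log2 scale, and 0% of 5334 genes were called, with 64 (higher) and 105 (lower) genes whose unadjusted p was under 0.05 and 0 by DESeq2. In Aged cells they ran from -0.90 ± 0.65 (QCR8) and -0.75 ± 0.63 (QCR9) to 0.51 ± 0.55 (COR1), and 0% of 5757 genes were called, with 89 (higher) and 198 (lower) genes whose unadjusted p was under 0.05 and 21 by DESeq2, none of them a subunit. No subunit had an unadjusted p under 0.05 at either age. With SEs of 0.47 to 0.74, changes of the size of these estimates were not detectable in this fit. It did not pair RNA and footprints of the same lysate. With the lysate as a block, described with the dependence on processing, genes were called in Middle cells but no subunit was among them. The Aged estimate again rests on 1 footprint library.

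The ratio of footprint CPM to RNA CPM was then compared between subunits within each lysate, since the study's methods took RNA from the lysate used for footprints. Both values are relative to their own library, so a ratio is read against other genes of the lysate, whose median was 0.762 to 0.961. For the Aged footprint library, whose title gives no replicate number, the mean of both Aged RNA libraries was used. At least 8 of the 9 subunits were above the median gene in each lysate. QCR6 had the lowest ratio of the 9 in each of the 5, with 0.556 and 0.664 (Young), 1.13 and 0.822 (Middle), 0.652 (Aged). RIP1 stayed high at all ages, with 3.62 and 2.50 (Young), 2.78 and 2.49 (Middle), 2.66 (Aged), at or above the 92.7th percentile of genes in every lysate.

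The ratios of the smallest subunits were also high in Young cells. QCR8 had ratios of 3.62 and 2.48 (Young), 2.68 and 1.55 (Middle), 1.47 (Aged), and QCR9 had 3.32 and 2.76, 2.72 and 1.61, and 1.68. The Aged values of both lay below each Young value, and that of QCR9 lay between the Middle replicates. QCR10 had 3.05 and 3.51 (Young), 2.36 and 1.87 (Middle), 2.95 (Aged). CYT1 ranged from 1.09 to 2.54 between the Young lysates, a span that holds all its later values (1.76, 1.498 and 1.64). None of these movements passed the test of translational efficiency given above.

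**Figure D3:**
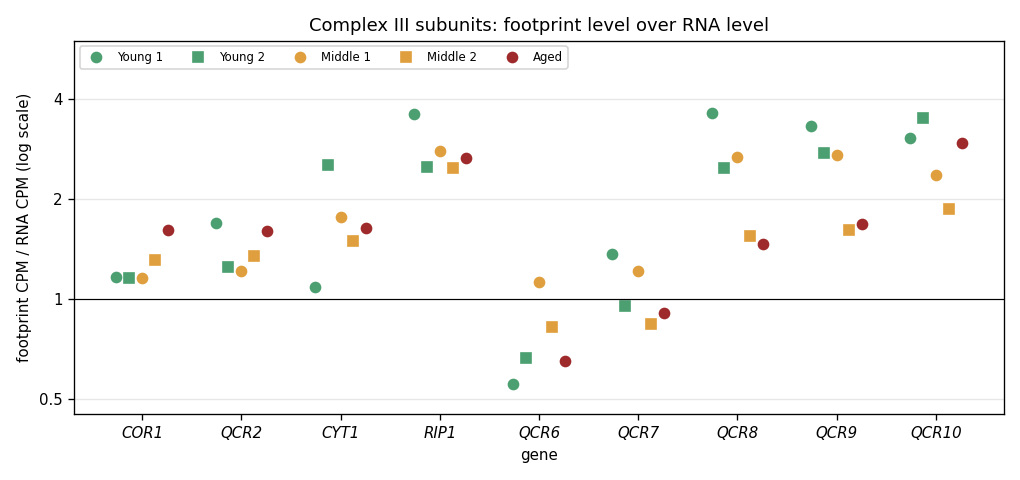
Footprint CPM divided by RNA CPM for each complex III subunit in each lysate, on a log axis, with the Aged footprint library set against the mean of the Aged RNA libraries. QCR6 is lowest in every lysate, RIP1 and QCR10 stay between 1.87 and 3.62, and QCR8 and QCR9 are lower in Aged than in Young cells.

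Levels per length were used to order the subunits, in CPM per kilobase of the codons the authors counted. In RNA of Young cells the subunits formed an upper group and a lower group that did not overlap in any library. The upper group held QCR6 (732 ± 12.6 CPM per kilobase, SD, n = 2), QCR7 (680 ± 431), QCR9 (492 ± 256) and QCR8 (426 ± 230). The lower group held COR1 (174 ± 32.6), QCR2 (168 ± 81.4), QCR10 (168 ± 80.2), CYT1 (154 ± 30.8) and RIP1 (151 ± 78.9). Neighbours within a group did not differ beyond their spread.

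In RNA of Aged cells, QCR6 (2803 ± 293 CPM per kilobase, SD), QCR7 (2360 ± 104) and QCR8 (1888 ± 331) came first, in values that did not overlap between QCR6 and QCR7 or between QCR7 and QCR8. QCR9 (1366 ± 50.6) and CYT1 (1334 ± 478) followed with overlapping values, and QCR10 (1012 ± 35.3), QCR2 (835 ± 63.5), COR1 (741 ± 81.3) and RIP1 (661 ± 78.0) came last, where QCR2 and COR1, and COR1 and RIP1, overlapped. The CYT1 replicates, 1672 and 996 CPM per kilobase, reached from above the lower QCR8 value (1654) to below the higher QCR10 value (1037).

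Footprints per length put QCR9 (1443 ± 582 CPM per kilobase, SD, n = 2) and QCR8 (1206 ± 360) first in Young cells, and QCR2 (235 ± 67.1) and COR1 (202 ± 36.4) last. In the Aged library the order was QCR10 (2985 CPM per kilobase), QCR8 (2766), QCR9 (2296), CYT1 (2186), QCR7 (2141), QCR6 (1828), RIP1 (1757), QCR2 (1338) and COR1 (1195). COR1 and QCR2 thus had the lowest footprint level of the complex in both Young and Aged cells on average. CYT1 lay next above them in the mean of Young cells and next below QCR9 in the Aged library. Its Young replicates were 144 and 448 CPM per kilobase, and in the first of them it was the lowest subunit. The Aged place rests on a single library, so no shift in rank is established.

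The spread of the subunits was smaller in Aged than in Young cells in both assays. The highest subunit was 7.14 and 8.14 times the lowest in footprints per length of the Young libraries, 4.37 and 4.31 times in Middle cells and 2.50 times in Aged cells. The SD over the 9 subunits on the log2 scale was 1.02 in both Young libraries, 0.777 and 0.624 in the Middle libraries and 0.441 in the Aged library. In RNA per length it was 1.00 and 0.987 (Young), 0.644 and 0.785 (Middle), 0.715 and 0.797 (Aged). QCR8 and QCR9 carried much of the footprint spread in Young cells. Without them, an alternative added after seeing the data, the mean footprint SD was 0.716 in Young, 0.583 in Middle and 0.447 in Aged cells. No test was made of this spread, since the subunits are not replicates and Aged cells have 1 footprint library.

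As shares of the summed footprint level per length of the complex, CYT1 went from 3.52% and 6.39% in Young to 8.52% and 9.26% in Middle and 11.8% in Aged cells. QCR10 went from 8.28% and 11.3% to 11.5% and 12.7% and then to 16.1%. QCR9 went the other way, from 25.1% and 26.5% in Young to 18.7% and 14.8% in Middle and 12.4% in Aged cells. QCR8 held 23.2% and 20.9%, 17.9% and 21.1%, and 15.0%. The shares of QCR7 stayed between 11.6% and 13.4% throughout.

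**Figure D4:**
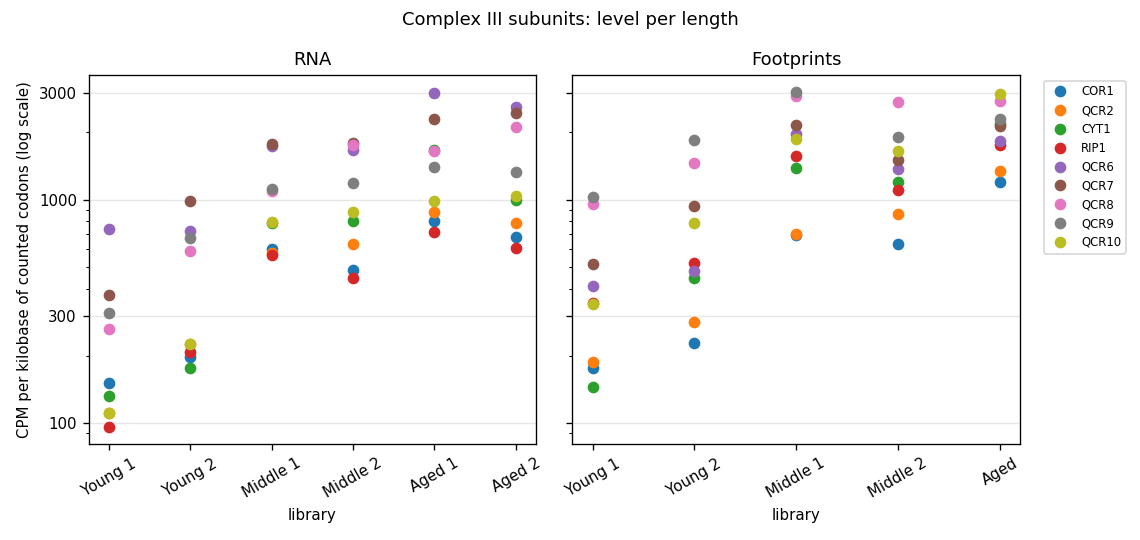
Level of the complex III subunits per kilobase of counted codons in each library, on a log axis, for RNA and footprints. Each color is a subunit. The points draw together in footprints, where the highest is 7.14 and 8.14 times the lowest in Young cells and 2.50 times in Aged cells, and in RNA it is 7.75 and 5.59 times the lowest in Young and 4.203 and 4.28 times in Aged cells.

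Over the 11 libraries, with levels as log2(CPM + 1) centred within each assay, the genes outside the complex most like the mean of its subunits among 3360 genes with a mean count of 50 or more were CYC1 (Pearson's r of 0.994), ARA1 (0.994), COX5A (0.994), CYC7 (0.993) and COX6 (0.991). CYC1 and CYC7 encode the isoforms of cytochrome c, COX5A and COX6 encode subunits of complex IV, and ARA1 encodes an arabinose dehydrogenase. The subunits themselves had r of 0.935 (QCR9) to 0.993 (QCR10) with a mean that includes them. The libraries fall into ages and share their depth and scaling, and 5.71% of the genes had an r over 0.9, so these values are a description.

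Other genes of the pathway were followed as lists of neighbouring steps. Over all genes, 8.02% were called higher in RNA and 4.79% in footprints of Aged over Young cells. The 8 genes that feed electrons to ubiquinone, which is the substrate of complex III once reduced, rose in RNA of Aged cells (8 of 8, median log2 fold change 2.24) and in their footprints (8 of 8, median 2.82). They include the NADH dehydrogenase NDE1 (3.40 in RNA and 4.22 in footprints) and the succinate dehydrogenase subunits SDH2 (2.28 and 3.04), SDH3 (2.22 and 1.62) and SDH4 (2.26 and 2.06). Of 6 genes around cytochrome c, the product side of the complex, 3 rose in RNA and 4 in footprints of Aged cells. CYC1 had 3.49 and 3.81, CYC7 had 3.31 and 3.43, the heme lyase CYC3 had 1.48 and 1.71, and the cytochrome c peroxidase CCP1 had 1.20 in RNA, which did not pass, and 1.91 in footprints.

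Of 10 nuclear genes of complex IV, 8 rose in RNA (median 2.35) and 6 in footprints (median 1.80) of Aged cells, led by COX12 (3.47 and 2.34), COX4 (2.73 and 2.45), COX6 (2.48 and 2.28) and COX5A (2.22 and 2.20). COX5B, the isoform of COX5A used when oxygen is low, had -0.27 ± 0.32 SE in RNA and -0.70 ± 0.50 in footprints and did not pass. Of 14 genes of ATP synthase, 13 rose in RNA (median 1.75) and 6 in footprints (median 1.51), among them ATP14 (2.64 and 1.88), ATP5 (2.11 and 1.82) and ATP19 (2.49 and 1.92), while ATP17 rose in RNA (1.99). With DESeq2, ATP14, ATP5 and ATP19 did not pass in footprints (adjusted p of 0.053, 0.055 and 0.21), nor did SDH3 (0.084) and CYC3 (0.14), and the list of ATP synthase kept 1 call there. Without RNA Young replicate 2 none of the RNA calls of these lists stood, as for all genes, and without RNA Young replicate 1 ATP17 (adjusted p of 0.058), ATP19 (0.059) and CYC3 (0.094) did not pass, nor did CYC3 without RNA Aged replicate 1 (0.064). Without footprint Young replicate 1, ATP synthase kept 3 calls in footprints, and SDH3 (adjusted p of 0.058), CYC3 (0.0615) and ATP19 (0.11) did not pass.

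Genes that build complex III were followed as well. Of 12 factors for the translation, assembly and maturation of its subunits, 2 rose in RNA of Aged cells (median log2 fold change 0.55 over the 12), beside 8.02% of all genes called higher. These were CBP4 (1.40 ± 0.35 SE, adjusted p of 0.024, edgeR), an assembly factor of cytochrome b, and CYT2 (1.40 ± 0.34, 0.022), the heme lyase of cytochrome c1. In footprints, CBP4 (1.66 ± 0.50, adjusted p of 0.053) and CYT2 (1.59 ± 0.49, 0.058) did not pass, nor did any other of the 11 factors tested. Neither RNA call stood without Young replicate 1 (adjusted p of 0.095 and 0.11) or without Young replicate 2 (0.083 and 0.10), nor that of CYT2 without Aged replicate 1 (0.061). In footprints both passed with no filter on low counts (0.015 and 0.020) and without Young replicate 2 (0.0062 and 0.020). BCS1, which inserts the Rieske protein, had 0.26 ± 0.40 in RNA and 0.40 ± 0.55 in footprints. Of 11 genes of ubiquinone synthesis, 0 passed in either assay (medians of 0.43 and 0.75), and of 4 mitochondrial peptidases and processing enzymes, 0 passed (0.51 and 0.88). DESeq2 and the other settings also called 0 genes of both lists in both assays.

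Of 8 genes of heme synthesis, HEM13 fell and none rose. Over all genes, 4.93% were called lower and 8.02% higher in RNA of Aged over Young cells. In footprints 4.06% were called lower and 4.79% higher. HEM13 encodes coproporphyrinogen oxidase, a gene known for its repression by oxygen and heme. Its RNA was 203 and 106 CPM (Young), 114 and 18.4 CPM (Middle), 24.7 and 22.1 CPM (Aged), with -2.72 ± 0.43 SE on the log2 scale for Aged over Young cells (adjusted p of 0.0036, edgeR), and its footprints had -3.32 ± 0.78 (0.018). Both Aged libraries were below both Young ones, while the Middle replicates spanned the gap between them. As for every gene, the RNA call of HEM13 did not stand without Young replicate 2. Leaving out 1 library, its RNA log2 fold change ranged from -3.13 to -2.20. Of 8 regulators, of which 7 were tested in footprints, CAT8, an activator of genes for growth without glucose, passed in Aged cells, with 1.42 ± 0.40 in RNA (adjusted p of 0.040) and 2.65 ± 0.55 in footprints (0.010). Without Young replicate 1 the RNA of CAT8 did not pass (adjusted p of 0.24), nor did it without Young replicate 2 (0.16) or without Aged replicate 1 (0.31). No other regulator passed in this fit, while the joint fit of 3 ages called 2 in RNA, and 2 were called in footprints without Young replicate 1. HAP4, the regulatory subunit of the Hap complex, had 1.01 ± 0.31 in RNA (adjusted p of 0.052) and 0.74 ± 0.45 in footprints (0.33). The regulators as a list were mixed. In RNA, 4 had log2 fold changes above 0 and 4 below (median 0.17, lowest -0.94). In footprints, 5 were above 0 and 2 below (median 0.72, lowest -1.53).

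**Figure D5:**
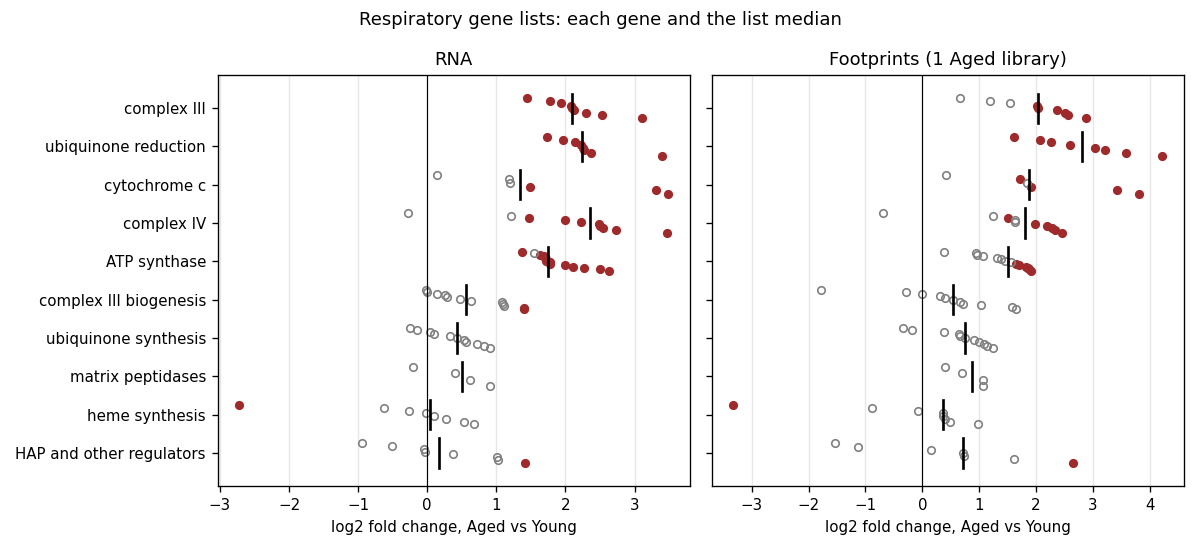
Log2 fold change of Aged over Young cells for each gene of the respiratory lists, in RNA and in footprints. Filled points passed an adjusted p under 0.05, open points did not, and black bars are list medians. The lists of electron carriers and ATP synthase have medians of 1.34 to 2.35 in RNA, and the filled point at the far left is HEM13 at -2.72 in RNA and -3.32 in footprints.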

How the data were processed

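The deposited files hold, for each gene and library, a count of reads and its length in codons, from which 5 codons at either end were dropped. The authors trimmed reads with Fastp, removed reads on non-coding RNA, aligned the rest to S288C (R64, sacCer3) with STAR 2.7.0a and left the counts unnormalized. The submitters' processing notes also name CASAVA 1.8. RNA-Seq reads were placed by an offset of 15 nt and footprints by length-dependent A-site offsets. The use of strand in counting and the treatment of reads mapping to several places are not given in the sources used here. The deposited length of QCR9 is 56 codons, where the reference gives 57, and those of the other 8 subunits are equal.

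Counts were tested in R 4.3.3 with edgeR 4.0.16 (filterByExpr, TMM, two-sided quasi-likelihood tests, with p-values adjusted by Benjamini-Hochberg across every gene tested and a threshold of 0.05). Each comparison used the libraries of its ages, except that footprints and translational efficiency of Aged cells used all libraries of the assays, since Aged cells have 1 footprint library. Each SE of a log2 fold change was derived from the test, as its size divided by the square root of the quasi-likelihood F statistic. Levels and lists were handled in Python 3.11.15. Of 6668 genes, 5989 were matched to the reference annotation. The members and lists were chosen with earlier results of these data known. All subunits are named, and from each other list at most 4 called genes, those with the smallest p in RNA and then in footprints of Aged cells. COX5B, BCS1 and HAP4 were added after their values were seen. The alternatives were DESeq2 1.42.0 and its size factors, library totals, no filter, at least 10 counts in every library, a joint fit of the 3 ages, replicate and lysate blocks, TMM within each assay and leaving out each library of the groups compared, except Middle libraries in the Aged over Young fits of footprints and translational efficiency, which were not run.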

Additional observations from a re-analysis of the deposited data

How the results depend on the processing

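The calls in RNA of Middle over Young cells, the contrast of the choice, are given only to show their dependence on the setting. Against 4 subunits, DESeq2 called 8, the joint fit of 3 ages 7 and the replicate block 9, and leaving out 1 library gave 5 to 8, with medians of 1.31 to 2.39 on the log2 scale. For RNA of Aged over Young cells, leaving out 1 library gave 0 to 9 calls and medians of 1.88 to 2.79, the highest without Young replicate 2, and every other setting kept 9 calls. For footprints of Middle cells the block gave 8 calls and leaving out 1 library 0 to 8. From Middle to Aged RNA the block gave 2 calls, and it called 3 regulators in RNA of Aged over Young cells. Same-numbered libraries of different ages deviated together with r of 0.210 for RNA of Young and Middle, 0.037 for Young and Aged and 0.335 for Middle and Aged. For footprints of Young and Middle r was 0.094, each across 5757 genes. RNA and footprints of the same lysate, pairs by the study's methods, gave only 0.417 (Young) and 0.295 (Middle). These r therefore cannot decide whether the numbers mark pairs. The methods took Young and Middle cells from the same beading reaction without giving the numbers, so the block is given here alone. It moved the calls over all genes from 173 to 541, 764 to 1127, 440 to 1418 and 287 to 681. The lysate block called 55 genes for translational efficiency, the replicate block 10, with 0 subunits in both. No paired analysis was possible for footprints and translational efficiency of Aged cells because the library's title has no number.

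Over all genes, calls also moved by over 1.5 times with DESeq2 (RNA Middle 400, footprints Aged over Young 265 against 410), the joint fit (RNA Middle 337), at least 10 counts (RNA Middle 105) and no filter (RNA Middle 271, footprints 650, 680 and 311 for Middle over Young, Aged over Young and Aged over Middle), library totals (footprints Aged over Middle 232 against 150), and leaving out a library (236 to 756 in RNA Middle over Young, 0 to 635 in RNA Aged over Young, 144 to 538 in RNA Aged over Middle, and in footprints 46 to 936, 525 to 708 and 12 to 184 in the same order).

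Some directions reversed, all of values that did not pass the test. Footprints of QCR8, Aged over Middle, were 0.0088 with at least 10 counts. Translational efficiency in Middle cells was 0.075 (QCR2), 0.083 (RIP1) and 0.087 (QCR7) with library totals and 0.00042 (QCR7) with at least 10 counts, and that of RIP1 in Aged cells was 0.027 with no filter. Leaving out 1 library, footprints of Aged over Middle cells ranged from -0.14 to 0.41 (QCR6), -0.052 to 0.51 (QCR7), -0.12 to 0.013 (QCR8) and -0.45 to 0.26 (QCR9). Translational efficiency in Middle cells ranged from -0.11 to 0.23 (COR1), -0.70 to 0.27 (QCR2), -0.86 to 0.74 (CYT1), -0.76 to 0.30 (RIP1), -0.92 to 0.42 (QCR7) and -1.28 to 0.043 (QCR10), with the median of the 9 from -0.76 to 0.23. In Aged cells it ranged from -0.37 to 0.65 (QCR2), -0.74 to 0.82 (CYT1), -0.72 to 0.38 (RIP1), -1.06 to 0.32 (QCR7) and -0.76 to 0.62 (QCR10), with the median from -0.72 to 0.29. The cause of these moves was not tested. A group left with 1 library was assumed to vary like the others. The lowest subunit counts, 20 in RNA and 24 in footprints, were those of QCR10 in Young replicate 1.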
